A study of Rattus norvegicus with 12 samples.

Results

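Cd14, 8 Toll-like receptor genes (Tlr1, Tlr2, Tlr3, Tlr4, Tlr5, Tlr6, Tlr7 and Tlr9) and the adaptor gene Myd88 were followed across 12 brain RNA-seq libraries. These 10 genes were taken from the count table by symbol, each symbol matched 1 row, and the table holds 31177 rows. The libraries fall into 3 groups of 4, labelled AD-HFD (an Alzheimer's disease model that also received a high-fat diet), AD (that model without the diet) and Sham (the controls). No group with the diet alone was analysed here. The labels do not say how the disease model was made (no transgene, injected agent or strain), how old the animals were, how long the diet lasted or which part of the brain was taken. They call the animals mice, whereas the organism field reads Rattus norvegicus and the identifiers are rat Ensembl genes, so the counts are treated as rat. They do not state that each library came from a separate animal, and a p-value here weighs a difference against the spread between libraries that may be technical.

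Toll-like receptors recognise molecules of microbes and of damaged tissue. Those at the cell surface, among them TLR4 and the pairs TLR1 with TLR2 and TLR2 with TLR6, bind lipopolysaccharide, lipopeptides and flagellin, and those in endosomes bind nucleic acids. CD14 passes lipopolysaccharide on to the complex of TLR4 and MD-2, and MyD88 couples every member of the family except TLR3 to the kinases that activate NF-kB. In the brain, microglia and the macrophages at its borders are the main cells that carry most of these receptors.

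The libraries held 26668974 to 35351792 counts. Levels are given in CPM, the count relative to the TMM-scaled library size, which is not corrected for gene length, so levels are compared between libraries and not between genes. The libraries within a group were uneven. AD-HFD-3 was the lowest of its group for 9 of the 10 genes and AD-HFD-4 the highest for 7, and AD-3 was the highest of the AD group for 7 while AD-2 was the lowest for 7. Markers of brain regions also varied: over 5 cortex markers the mean log2 CPM was 4.72 to 7.24 in AD-HFD, 1.42 to 6.09 in AD and 7.65 to 7.97 in Sham, and over 6 thalamus markers it was 1.98 to 2.82 in AD-HFD, 2.33 to 6.59 in AD and 1.56 to 2.50 in Sham. In AD against Sham 4 of 6 thalamus markers were called higher (edgeR, adjusted p under 0.05), beside 3.07% of all genes. There 2 of 5 cortex markers were called lower, beside 3.16% of all genes. In AD-HFD against Sham 1 of 5 cortex markers was called lower, beside 12.9% of all genes, and no thalamus marker was called. Of the AD libraries, AD-3 had the highest cortex mean and the lowest thalamus mean. Whether region bears on the values below was not tested.

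Relative to Sham, 8 of the 10 genes were called higher in AD-HFD, as were 19.7% of all genes tested. Cd14 and Tlr1 were at the top (97.5-fold and 31.4-fold between group means), with Myd88, Tlr2, Tlr6, Tlr4, Tlr7 and Tlr9 between 3.10-fold and 6.59-fold. Tlr3 did not pass the test and Tlr5 was too low to be tested, although both also had higher means in AD-HFD than in Sham. Relative to Sham, the AD libraries had higher Cd14 and Tlr1 and no other called member, beside 3.07% of all genes called higher. Between AD-HFD and AD no member was called, although 7 of the 9 tested had adjusted p between 0.0605 and 0.0822, all with higher AD-HFD means. By p these 7 ranked 321 to 2405 among the 18850 genes tested, so many other genes also had adjusted p values in this range. In bulk tissue, more cells of a type and more RNA per cell cannot be told apart.

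**Figure D1:**
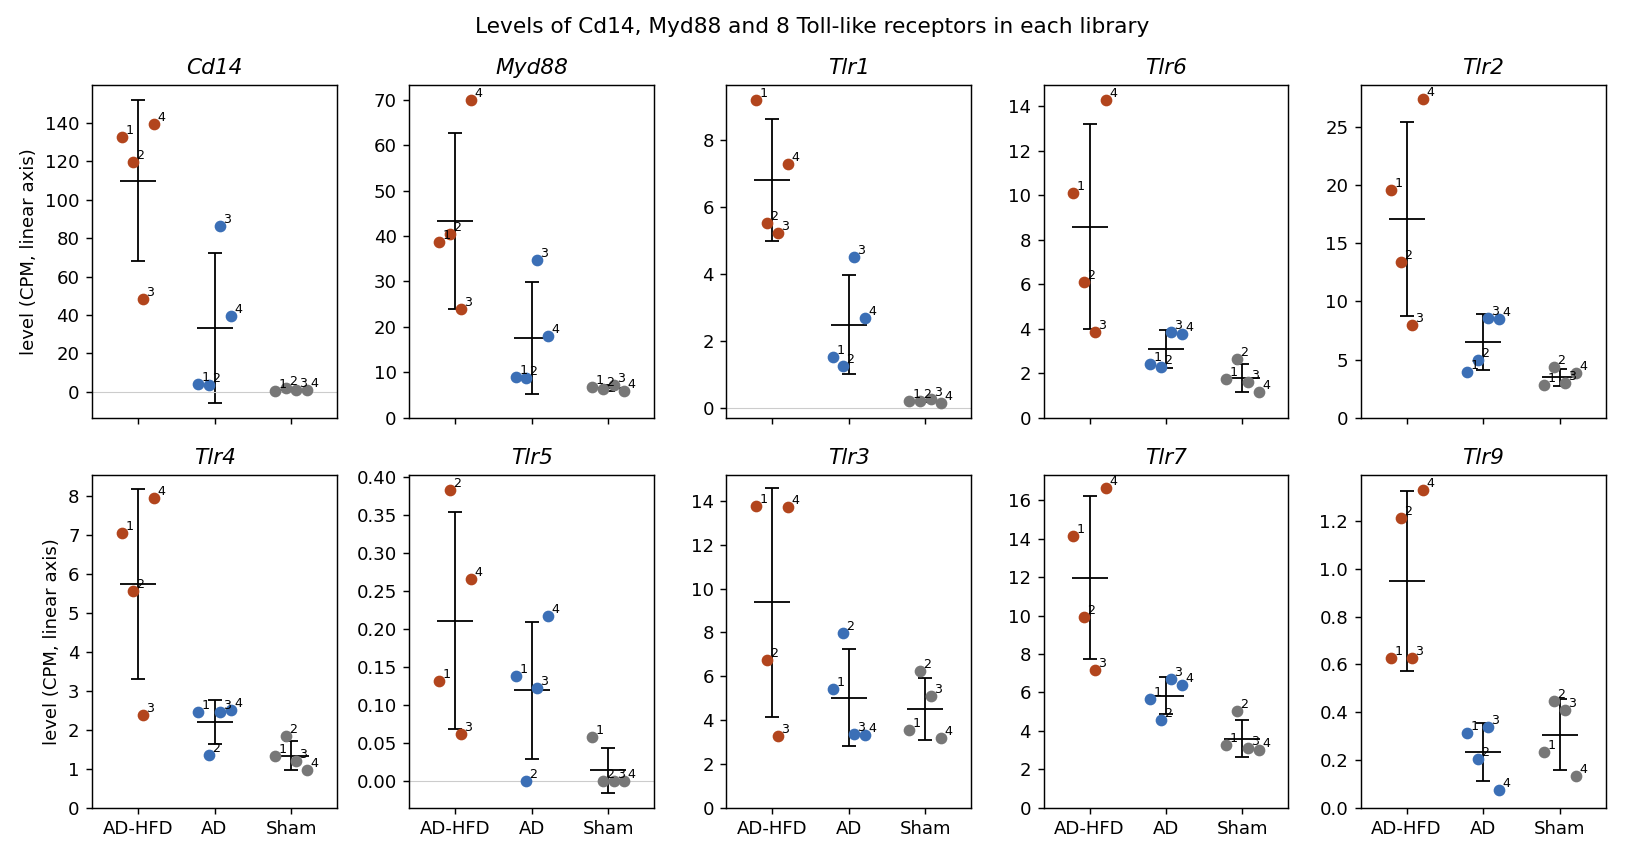
Levels of the 10 genes in every library (CPM, linear axes that differ between panels). Points are libraries with their replicate number, and bars are the group mean ± SD (n = 4 per group). Cd14 lies between 48.4 and 139 CPM in AD-HFD, is spread from 3.76 to 86.2 CPM in AD, and stays at or below 2.01 CPM in Sham.

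Cd14, the lipopolysaccharide co-receptor, was at 133, 119.9, 48.4 and 139 CPM in AD-HFD-1 to AD-HFD-4, at 4.02, 3.76, 86.2 and 39.5 CPM in AD-1 to AD-4, and at 0.409, 2.01, 1.16 and 0.937 CPM in Sham-1 to Sham-4. Every AD-HFD and every AD library was above every Sham library, and the AD group split into a pair of low libraries (AD-1 and AD-2) and a pair of high ones, AD-3 being above AD-HFD-3. The highest AD library was 22.9-fold above the lowest, against 2.88-fold in AD-HFD and 4.92-fold in Sham. The group means were 110.1 ± 41.9 CPM in AD-HFD, 33.4 ± 39.0 CPM in AD and 1.13 ± 0.668 CPM in Sham (SD, n = 4 each). The log2 fold change was 6.61 ± 1.06 (SE) for AD-HFD over Sham (adjusted p = 0.00289, edgeR's quasi-likelihood test, Benjamini-Hochberg adjusted over all genes tested, as for each adjusted p that follows) and 4.89 ± 1.00 for AD over Sham (adjusted p = 0.0190). For AD-HFD over AD it was 1.72 ± 0.821 with an adjusted p of 0.178.

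Tlr4, the receptor that CD14 serves, was at 7.07, 5.58, 2.38 and 7.95 CPM in the AD-HFD libraries, 2.46, 1.34, 2.46 and 2.50 CPM in the AD libraries and 1.31, 1.85, 1.19 and 0.971 CPM in the Sham libraries. All AD-HFD libraries exceeded all Sham libraries, AD-HFD-3 lay among the AD libraries, and AD-2 lay among the Sham libraries. Tlr4 rose in AD-HFD over Sham by a log2 fold change of 2.10 ± 0.385 (adjusted p = 0.00397). The change was 1.39 ± 0.368 for AD-HFD over AD (adjusted p = 0.0613) and 0.71 ± 0.399 for AD over Sham (adjusted p = 0.306). The ratio of Cd14 to Tlr4 in CPM, in which depth cancels, was 17.5 to 21.5 in the 4 AD-HFD libraries. It was 1.63, 2.80, 35.0 and 15.8 in AD-1 to AD-4, and 0.311 to 1.09 in Sham. The 4 AD-HFD ratios thus lay close together although their Tlr4 levels differed 3.35-fold, whereas the AD libraries fell on either side of them.

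Promoter windows from RefSeq (GRCr8) are printed for 4 of the genes, the receptor pair just described, the shared receptor Tlr2 and the adaptor Myd88. All 4 carry the letters of motifs long tied to myeloid and inflammatory genes. Tlr3, Tlr6, Tlr7 and Tlr9 also carry some of these letters, and their windows are not printed. Each printed window runs 5′ to 3′ on the gene's strand from 250 bases before to 50 bases after its start. They are Cd14 at chr18:28611109-28611408 on the minus strand, Tlr4 at chr5:85160997-85161296 on the plus strand, Tlr2 at chr2:171504508-171504807 on the minus strand and Myd88 at chr8:127956181-127956480 on the minus strand. Capitals mark matches on either strand to the PU.1 core GAGGAA (Cd14 and Tlr4), to the NF-kB consensus (Tlr2, where overlapping matches are joined), or to the AP-1 site TGANTCA and then the ISRE core, GAAA before and after any 2 bases (Myd88).
Cd14: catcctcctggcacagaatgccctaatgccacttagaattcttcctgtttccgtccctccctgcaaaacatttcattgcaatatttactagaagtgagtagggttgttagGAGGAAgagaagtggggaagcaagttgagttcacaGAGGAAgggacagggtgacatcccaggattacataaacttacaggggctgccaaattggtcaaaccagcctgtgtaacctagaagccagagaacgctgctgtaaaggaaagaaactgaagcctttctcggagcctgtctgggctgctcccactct
Tlr4: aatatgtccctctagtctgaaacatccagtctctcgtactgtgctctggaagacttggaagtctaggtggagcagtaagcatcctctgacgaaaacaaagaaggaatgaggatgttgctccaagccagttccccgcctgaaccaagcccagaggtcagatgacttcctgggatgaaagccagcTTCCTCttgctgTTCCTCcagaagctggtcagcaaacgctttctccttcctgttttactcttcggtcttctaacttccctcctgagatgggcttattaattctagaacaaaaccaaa
Tlr2: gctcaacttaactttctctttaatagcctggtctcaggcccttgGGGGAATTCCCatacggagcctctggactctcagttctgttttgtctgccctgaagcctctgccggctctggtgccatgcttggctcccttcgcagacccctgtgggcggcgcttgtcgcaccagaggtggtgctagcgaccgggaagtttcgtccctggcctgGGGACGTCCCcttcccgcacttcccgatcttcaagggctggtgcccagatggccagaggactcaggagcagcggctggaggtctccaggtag
Myd88: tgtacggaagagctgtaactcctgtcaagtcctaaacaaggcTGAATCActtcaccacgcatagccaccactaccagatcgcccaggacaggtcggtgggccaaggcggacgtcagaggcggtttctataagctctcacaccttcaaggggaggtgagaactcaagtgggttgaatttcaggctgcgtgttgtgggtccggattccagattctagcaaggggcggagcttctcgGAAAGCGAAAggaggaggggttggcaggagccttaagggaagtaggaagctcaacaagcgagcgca
All 10 genes had a promoter in the table of 33469. The PU.1 core was in 6 of the 10 windows and in 27.6% of all windows, the NF-kB consensus in 1 and 7.51%, the AP-1 site in 2 and 7.33%, the ISRE core in 1 and 3.92%, and the C/EBP letters TTNNGNAA, not marked above and overlapping a PU.1 core in Tlr9, in 4 and 41.3%. The Tlr1 window held none of the 5. These are letter matches and no measure of binding.

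Tlr2, the shared partner of TLR1 and TLR6, was at 19.5, 13.4, 7.94 and 27.3 CPM in AD-HFD, 3.95, 4.93, 8.58 and 8.45 CPM in AD and 2.78, 4.35, 2.99 and 3.85 CPM in Sham. AD-HFD was above Sham in every library, AD-HFD-3 lay just under AD-3 and AD-4, and AD-1 lay under Sham-2. The log2 fold change of Tlr2 was 2.29 ± 0.387 for AD-HFD over Sham (adjusted p = 0.00322), 1.40 ± 0.371 for AD-HFD over AD (adjusted p = 0.0614) and 0.89 ± 0.384 for AD over Sham (adjusted p = 0.182).

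Tlr1, which with TLR2 binds triacylated lipopeptides, was the member whose 3 groups stood fully apart in the order AD-HFD, AD, Sham. It was at 9.20, 5.55, 5.22 and 7.29 CPM in AD-HFD, 1.52, 1.25, 4.52 and 2.68 CPM in AD and 0.205, 0.224, 0.272 and 0.167 CPM in Sham. The Sham values rest on 27 counts over the 4 libraries, against 840 in AD-HFD and 308 in AD, and no Sham library reached the filter's 0.324 CPM, so Tlr1 entered the test through the other groups. In log2 terms the fold change was 4.95 ± 0.483 for AD-HFD over Sham (adjusted p = 0.000371) and 3.50 ± 0.503 for AD over Sham (adjusted p = 0.00372). For AD-HFD over AD it was 1.45 ± 0.357 (adjusted p = 0.0605), with no overlap between the libraries of these groups.

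Tlr6, which with TLR2 binds diacylated lipopeptides and lies next to Tlr1 in the genome, was at 10.1, 6.12, 3.85 and 14.3 CPM in AD-HFD, 2.42, 2.28, 3.88 and 3.77 CPM in AD and 1.72, 2.65, 1.60 and 1.14 CPM in Sham. AD-HFD-3 and AD-3 were level, and both lay above all Sham libraries. For Tlr6 the log2 fold change was 2.27 ± 0.417 for AD-HFD over Sham (adjusted p = 0.00401), 1.48 ± 0.398 for AD-HFD over AD (adjusted p = 0.0617) and 0.79 ± 0.424 for AD over Sham (adjusted p = 0.282). Tlr1 per Tlr6 in CPM was 0.509 to 1.36 in AD-HFD, 0.551 to 1.17 in AD and 0.0843 to 0.170 in Sham, while Tlr6 per Tlr2 was 0.457 to 0.523 in AD-HFD, 0.446 to 0.614 in AD and 0.296 to 0.621 in Sham. The partners of TLR2 thus differed: Tlr1 per Tlr6 was higher in all AD-HFD and AD libraries than in any Sham library, and Tlr6 per Tlr2 overlapped between the groups. Tlr1 and Tlr6 are close relatives, and no source used here says how reads matching both were assigned, and the split between them is uncertain.

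Tlr5, the flagellin receptor, had 4, 12, 2 and 8 counts in the AD-HFD libraries, 4, 0, 4 and 6 in the AD libraries and 2, 0, 0 and 0 in the Sham libraries. These are too few for the test's filter, and a count of 0 still allows up to 3 counts in a library. With no filter the log2 fold change of AD-HFD over Sham was 3.40 with an adjusted p of 0.0562, so no difference was called at this depth.

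Of the endosomal receptors, Tlr7 and Tlr9 rose in AD-HFD against Sham and Tlr3 did not pass the test. Tlr7, a receptor for single-stranded RNA, was at 14.2, 9.91, 7.19 and 16.6 CPM in AD-HFD, 5.68, 4.58, 6.71 and 6.39 CPM in AD and 3.24, 5.05, 3.13 and 2.98 CPM in Sham. Every AD-HFD library was above every AD and Sham library, and AD-2 lay under Sham-2. Tlr7 changed by a log2 fold change of 1.73 ± 0.289 for AD-HFD over Sham (adjusted p = 0.00314), and the values were 1.04 ± 0.281 for AD-HFD over AD (adjusted p = 0.0618) and 0.70 ± 0.29 for AD over Sham (adjusted p = 0.169).

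Tlr9, the receptor for unmethylated CpG DNA, was scarce, at 0.624, 1.21, 0.625 and 1.33 CPM in AD-HFD, 0.312, 0.204, 0.338 and 0.0726 CPM in AD and 0.234, 0.447, 0.408 and 0.134 CPM in Sham. The AD-HFD libraries were above all the others, the AD and Sham libraries overlapped, and the counts summed to 117 in AD-HFD, 29 in AD and 38 in Sham. Its log2 fold change was 1.62 ± 0.452 for AD-HFD over Sham (adjusted p = 0.0187), 1.99 ± 0.474 for AD-HFD over AD (adjusted p = 0.0605) and -0.37 ± 0.564 for AD over Sham (adjusted p = 0.729). The call over Sham was lost when AD-HFD-2, AD-HFD-4, Sham-1 or Sham-4 was left out (adjusted p between 0.0545 and 0.0597).

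Tlr3, the receptor for double-stranded RNA, which signals through TRIF and not MyD88, was at 13.8, 6.76, 3.28 and 13.7 CPM in AD-HFD, 5.44, 7.99, 3.38 and 3.30 CPM in AD and 3.53, 6.23, 5.10 and 3.18 CPM in Sham. The 3 groups overlapped, AD-HFD-1 and AD-HFD-4 being above the rest and AD-HFD-3 being at the level of the lowest libraries. Its log2 fold change was 1.05 ± 0.448 for AD-HFD over Sham (adjusted p = 0.0878), 0.89 ± 0.446 for AD-HFD over AD (adjusted p = 0.195) and 0.16 ± 0.453 for AD over Sham (adjusted p = 0.862). Without AD-HFD-3 it was called over Sham, at 1.34 with an adjusted p of 0.0140.

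Myd88, the shared adaptor, was at 38.7, 40.5, 23.9 and 70.0 CPM in AD-HFD, 8.90, 8.66, 34.8 and 18.0 CPM in AD and 6.75, 6.23, 7.31 and 5.96 CPM in Sham. As for Cd14, all AD-HFD and all AD libraries exceeded all Sham libraries, AD-1 and AD-2 were low within AD, and AD-3 was above AD-HFD-3. The log2 fold change of Myd88 was 2.72 ± 0.454 for AD-HFD over Sham (adjusted p = 0.00314), 1.30 ± 0.429 for AD-HFD over AD (adjusted p = 0.0822) and 1.42 ± 0.44 for AD over Sham (adjusted p = 0.0763).

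**Figure D2:**
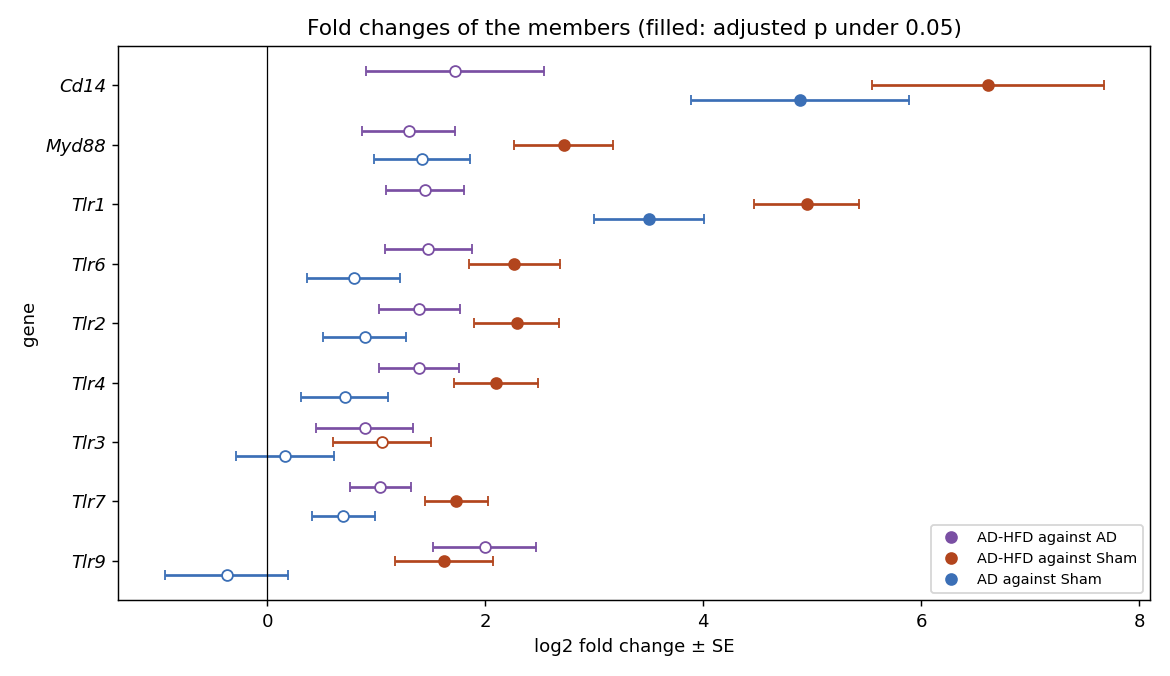
Log2 fold change ± SE of the 9 tested genes in each of the 3 comparisons, from 1 fit of all 12 libraries. Filled points have an adjusted p under 0.05: 8 genes in AD-HFD against Sham, Cd14 and Tlr1 in AD against Sham, and none in AD-HFD against AD.

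The counts of called members were read against all 18850 genes tested. In AD-HFD against Sham, 8 of 9 tested members were called higher and none lower, whereas 32.7% of all genes were called, 19.7% higher and 12.9% lower. The 8 also had no overlap between groups, as did 18.9% of all genes with the AD-HFD libraries higher, and 9 members and 45.4% of all genes had an unadjusted p under 0.05. In AD against Sham, 2 of 9 were called higher and none lower, against 6.23% of all genes, 3.07% higher and 3.16% lower. All 4 AD libraries lay above all 4 Sham libraries for 3 members (Cd14, Tlr1 and Myd88) and for 10.3% of all genes, and 5 members and 24% of all genes had an unadjusted p under 0.05. In AD-HFD against AD, none of 9 was called, and 0.0106% of all genes (2 genes, neither of them a member) were. There 7 members had an unadjusted p under 0.05, as did 30.5% of all genes, 3 (Tlr1, Tlr7 and Tlr9) had AD-HFD libraries that were all higher, as had 2.72% of all genes, and DESeq2 called 7 members and 17.6% of all genes. Because Tlr1 and Tlr9 passed the filter mainly through groups in which they were high, all 10 members were also fitted with no filter. That fit called 8 members and 19.7% of 27842 genes in AD-HFD against Sham, 2 and 3.76% in AD against Sham, and none and 0.0108% in AD-HFD against AD. The median log2 fold change of all 10 was 2.26 in AD-HFD against Sham (0 for all genes), 0.87 in AD against Sham (0.06 for all genes) and 1.35 in AD-HFD against AD (0 for all genes). Both comparisons against Sham use the same 4 Sham libraries.

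The comparison of AD-HFD with AD turned on 2 libraries. Without AD-HFD-3, 8 of 9 members were called higher (all but Cd14), beside 27.6% of all genes called in either direction. Without AD-3, 8 were called higher (all but Tlr3), beside 30.3% of all genes called in either direction. Leaving out any other single library gave no called member. With AD-3 as the only AD library there was no call, and the log2 fold changes of AD-HFD over AD were 0.34 for Cd14, 0.59 for Tlr1 and 0.31 for Myd88. The pair of calls in AD against Sham differed in firmness: Tlr1 was called in each of the 12 fits that left out 1 library, and Cd14 was not called when Sham-1, Sham-3 or Sham-4 was left out (adjusted p between 0.0565 and 0.0665).

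Markers of several cell types also differed between the groups. Beside the counts below, 19.7% of all genes were called higher and 12.9% lower in AD-HFD against Sham. In AD against Sham the shares were 3.07% and 3.16%. Over 16 microglia markers the summed level was 512 to 876 CPM in AD-HFD, 417 to 587 CPM in AD and 320.3 to 369.98 CPM in Sham. In AD-HFD against Sham 7 of the 16 rose and 2 fell, the falls being P2ry12 and Gpr34 (named after their values were seen). Called or not, 10 of the 16 had a positive log2 fold change there. The share of the list that fell was near that of all genes. In AD against Sham 4 rose and none fell. The 7 border macrophage markers summed to 29.3 to 164 CPM in AD-HFD, 22.0 to 34.6 CPM in AD and 4.73 to 11.7 CPM in Sham, and 7 of 7 rose in AD-HFD against Sham and 3 in AD against Sham. The 6 tested of 12 blood leukocyte markers, which include S100a8 and S100a9, summed to 30.5 to 295 CPM in AD-HFD, 23.6 to 65.6 CPM in AD and 5.78 to 7.76 CPM in Sham, and 5 rose in AD-HFD against Sham and 2 in AD against Sham. The 5 red blood cell markers, 254 to 4222 CPM in AD-HFD, 273 to 613 CPM in AD and 160.1 to 364 CPM in Sham, and the 4 tested endothelial markers, 174 to 1378 CPM in AD-HFD, 129.8 to 234 CPM in AD and 84.5 to 113 CPM in Sham, all rose in AD-HFD against Sham and none in AD against Sham. The 6 neuron markers summed to 1299 to 5362 CPM in AD-HFD, 4289 to 5142 CPM in AD and 6450.2 to 8373 CPM in Sham, and 4 of them fell in AD-HFD against Sham. The 6 astrocyte markers summed to 1122 to 5350 CPM in AD-HFD, 2133 to 3695 CPM in AD and 1543 to 2164 CPM in Sham. Of these, 1 rose and 1 fell in AD-HFD against Sham. The 6 oligodendrocyte markers summed to 6404 to 46632 CPM in AD-HFD, 11502 to 44725 CPM in AD and 8122 to 19682 CPM in Sham, and 1 rose in AD-HFD against Sham. Their AD sums were highest in AD-2 and AD-1, the AD libraries lowest in Cd14. The order was the other way in AD-HFD, where AD-HFD-4 was highest and AD-HFD-3 lowest in both the sum and Cd14. In Sham, Sham-1 was lowest in both. The 7 leptomeningeal markers summed to 172 to 693 CPM in AD-HFD, 44.8 to 130.3 CPM in AD and 69.8 to 515 CPM in Sham, and 5 of them rose in AD-HFD against Sham. In AD-HFD against AD none of these 7 was called, and all 7 were higher at an unadjusted p under 0.05, as were 17.1% of all genes. The 6 choroid plexus markers summed to 10391, 553, 34.0 and 23.4 CPM in AD-HFD-1 to AD-HFD-4, to 7.12 to 27.0 CPM in AD, and to 4.50, 4603, 4523 and 10.04 CPM in Sham-1 to Sham-4. None was called in any comparison by edgeR. At an unadjusted p under 0.05, 5 were higher in AD-HFD against AD and 5 lower in AD against Sham. In AD against Sham 24% of all genes had such a p in either direction. AD-HFD-1, Sham-2 and Sham-3 stood apart from the other libraries in these markers, with AD-HFD-2 between. Of all these markers with a row, only Cldn5 (endothelial) had a group with no count, in Sham. Its median was 0 CPM in AD-HFD and AD too, with maxima of 9.43 and 4.38 CPM. The part of these cells and tissues in the members' values was not tested.

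**Figure D3:**
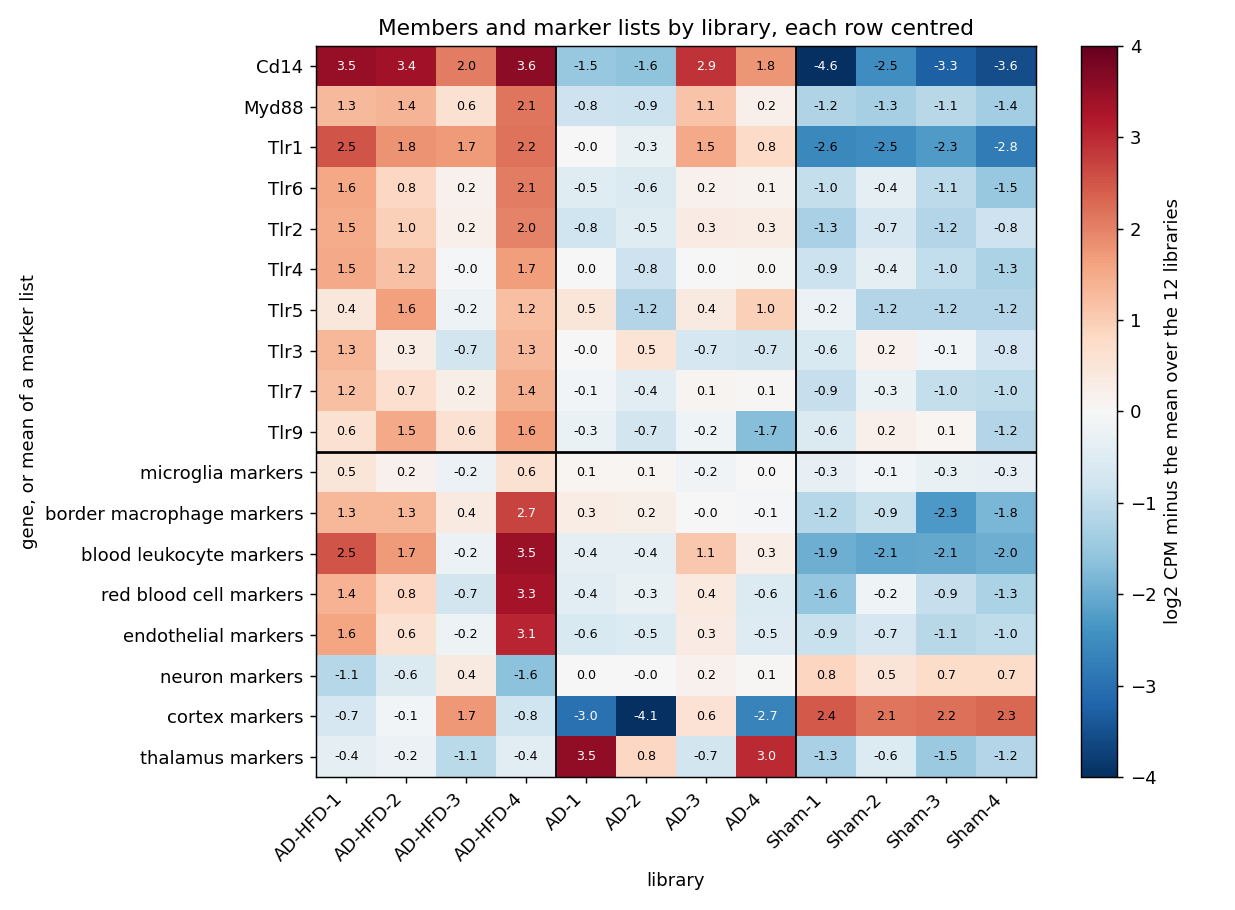
Log2 CPM of the 10 genes (above the line) and mean log2 CPM of 8 marker lists (below it) in each library, each row centred on its mean over the 12 libraries. AD-HFD-3 is the palest AD-HFD column and has the most negative red blood cell value of its group, AD-HFD-4 has the highest leukocyte, red blood cell and endothelial values, and AD-1, AD-2 and AD-4 have the lowest cortex values.

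As a description with no test, each member was also expressed relative to the mean log2 CPM of the 16 microglia markers in the same library. The Cd14 difference averaged 2.45 ± 0.392 in AD-HFD, -0.04 ± 2.38 in AD and -3.63 ± 0.809 in Sham on the log2 scale (SD, n = 4 each). That of Tlr1 averaged -1.47 in AD-HFD, -2.79 in AD and -5.54 in Sham. That of Myd88 averaged 1.11 in AD-HFD, -0.07 in AD and -0.97 in Sham. On this scale AD-HFD was apart from Sham for 7 of the 9 genes (all but Tlr3 and Tlr9), and AD apart from Sham for Cd14 and Tlr1. The AD-HFD libraries were likewise all higher than Sham for 9.88% of the 18850 genes on this scale, and the AD libraries for 4.28%. AD-HFD lay above AD for Tlr4, Tlr6, Tlr7 and Tlr9, as for 1.53% of all genes, and overlapped AD for the other 5. The same quantity for Tlr3 averaged -1.20 in AD-HFD, -1.71 in AD and -1.56 in Sham, with overlap between all groups. A ratio to these markers shows unequal change of the 2 quantities only, and 9 of the 16 markers themselves passed the test in AD-HFD against Sham.

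**Figure D4:**
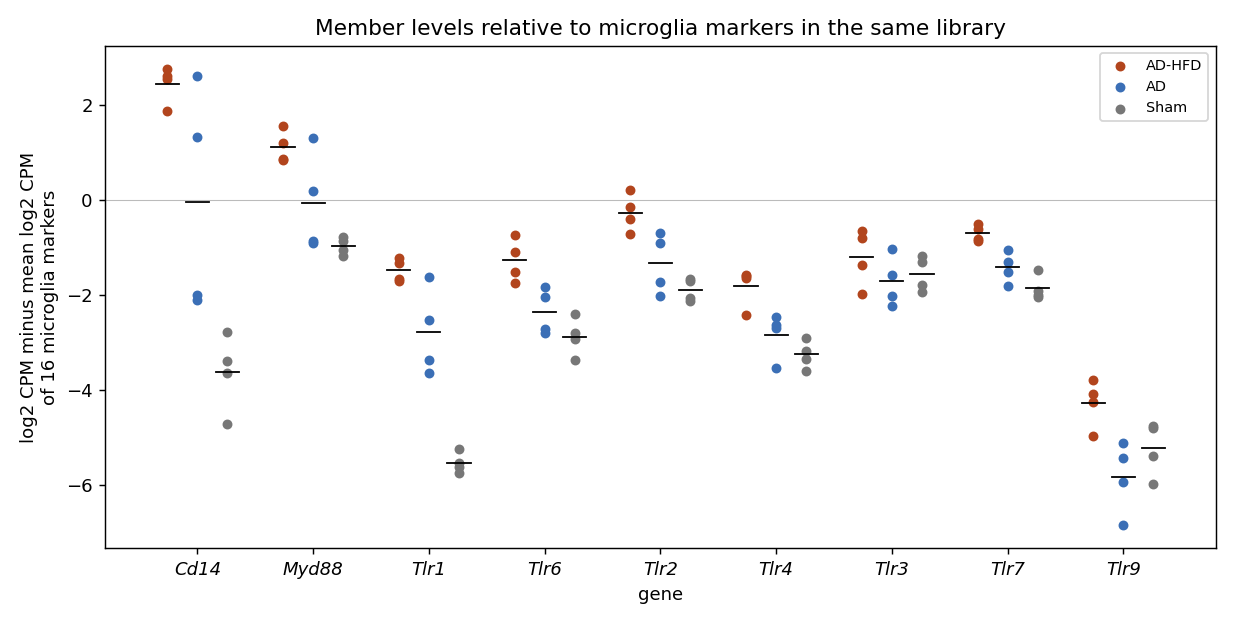
Log2 CPM of each of the 9 tested genes minus the mean log2 CPM of 16 microglia markers in the same library. Points are libraries and black lines group means (n = 4 each). Cd14 averages 2.45 in AD-HFD, -0.04 in AD and -3.63 in Sham, and the Tlr3 points of the 3 groups overlap.

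Other genes of the pathway were taken from 6 lists, whose counts stand beside the shares of all genes: 19.7% called higher and 12.9% lower in AD-HFD against Sham, and 3.07% and 3.16% in AD against Sham. Among the other Toll-like receptors only Tlr8, next to Tlr7 in the genome and also a receptor for single-stranded RNA in humans, was high enough to test. It was at 2.30, 1.69, 0.657 and 5.42 CPM in AD-HFD, 0.485, 0.263, 0.923 and 0.218 CPM in AD and 0.175, 0.511, 0.136 and 0.268 CPM in Sham, with AD-HFD above Sham in every library. It rose in AD-HFD over Sham by 3.18 ± 0.691 log2 (adjusted p = 0.00709). Tlr10, Tlr13, Ly96 (MD-2), Cd36 and Ticam1 (TRIF) were not analysed here.

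Of 7 tested co-receptors and chaperones, 5 rose in AD-HFD against Sham and none fell. Lbp, the serum protein that delivers lipopolysaccharide to CD14, averaged 52.9 ± 39.1 CPM in AD-HFD, 5.82 ± 6.51 CPM in AD and 0.279 ± 0.214 CPM in Sham (SD, n = 4 each). Its log2 fold change was 7.54 ± 0.964 for AD-HFD over Sham (adjusted p = 0.00152) and 4.36 ± 0.938 for AD over Sham (adjusted p = 0.0211), where it was the 1 gene of the list that was called. The call in AD over Sham was lost when any Sham library but Sham-2 was left out, and 2 genes of the list were called without AD-HFD-3. Ly86 (MD-1, the partner of CD180) rose by 1.97 log2, Unc93b1, which carries the endosomal receptors to their compartment, by 1.73, and Hsp90b1 (gp96), the chaperone that folds Toll-like receptors, by 0.79, in AD-HFD over Sham.

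All 8 endogenous ligands rose in AD-HFD against Sham, and 2 in AD against Sham (1 without Sham-4, 4 with DESeq2). S100a8 and S100a9, the calprotectin subunits, which can act on TLR4 and are abundant in neutrophils, rose by 6.14 and 6.12 log2 in AD-HFD over Sham and by 4.39 and 4.24 in AD over Sham. Their Sham values rest on 27 and 100 counts over the 4 libraries. Fn1 (fibronectin) rose by 3.55 log2 and Vcan (versican) by 1.21 in AD-HFD over Sham. The count of 8 was 5 without AD-HFD-4 and likewise without Sham-1, Sham-3 and Sham-4.

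Of 23 tested adaptors, kinases and transcription factors, 14 rose and none fell in AD-HFD against Sham. Irak4, the kinase that MyD88 recruits, rose by 1.97 log2, Tirap, which bridges TLR2 and TLR4 to MyD88, by 1.84, and the NF-kB subunits Nfkb2 and Nfkb1 by 3.38 and 1.54. In AD against Sham 1 of the 23 rose, a share near that of all genes, Tirap by 1.21 log2 (adjusted p = 0.0443), and no gene of the list was called in 8 of the 12 fits that left out 1 library (2 were without AD-HFD-3 or without AD-HFD-4). The count of 14 was 8 without Sham-4.

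Of 11 negative regulators, 6 rose and 2 fell in AD-HFD against Sham, and edgeR called none in AD against Sham (1 without AD-HFD-4), where 2 of 11 were higher at an unadjusted p under 0.05, against 13.3% of all genes. The receptors Il1rl1 (ST2) and Sigirr rose by 3.52 and 3.79 log2, Nfkbia, which holds NF-kB in the cytoplasm, by 3.01, and Socs1 by 2.55. The deubiquitinase gene Cyld fell by 0.92 log2 and Sarm1, a neuronal member of the adaptor family, by 0.84, and these 2 were named after their values were seen. No fall was called without AD-HFD-2, AD-HFD-4, Sham-1 or Sham-4.

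Of 16 tested target genes that Toll-like receptors induce, 14 rose in AD-HFD against Sham and 5 in AD against Sham. Targets with few or no Sham counts passed the filter through groups in which they were high. The 18 listed targets were therefore also read from the fit with no filter. There 16 of 18 rose in AD-HFD against Sham, beside 19.7% of all genes called in either direction. In AD against Sham 5 of 18 rose, beside 3.76%. In AD-HFD over Sham the iron-binding protein gene Lcn2 rose by 11.8 log2, the chemokine gene Ccl4 by 7.41 and the cytokine genes Il6 and Il1b by 8.53 and 5.49. Over the 4 Sham libraries Lcn2 had 5 counts, Ccl4 7, Il6 6 and Il1b 22, so the size of these changes is uncertain. In AD over Sham Lcn2 rose by 9.45 log2, Ccl2 by 8.73, Ccl4 by 5.52 and Il1b by 3.54. The AD libraries were uneven: the 16 targets summed to 32.5, 31.0, 910 and 104 CPM in AD-1 to AD-4. In Sham they summed to 40.7 to 66.1 CPM. Their mean log2 CPM was 0.08, -0.25, 3.32 and 1.71 in AD-1 to AD-4 and -1.68 to -0.97 in Sham. Ccl2 in AD ran from 0.934 to 382 CPM, with a mean of 99.9 and a median of 8.14 CPM. The count of 5 was 1 when any one Sham library was left out and 3 (with 1 gene lower) without AD-3. By other methods the count in AD against Sham was 10 with DESeq2 (beside 13.8% of all genes called), 2 with the replicate block and 0 with limma voom. The chemokine genes Cxcl1, Cxcl2 and Ccl3, named after their values were seen, had no count in Sham. Taking 3 counts over the Sham group as the floor, the AD-HFD group level of Cxcl1 was higher by at least 746-fold, that of Ccl3 by at least 667-fold and that of Cxcl2 by at least 177-fold. These bounds leave out the spread between the AD-HFD libraries. It ran from 3.31 to 37.5 CPM for Cxcl1, from 2.94 to 23.2 CPM for Ccl3 and from 0.188 to 8.32 CPM for Cxcl2. In AD-HFD against AD edgeR called no gene of the 6 lists. At an unadjusted p under 0.05 the AD-HFD level was higher for 4 of 7 co-receptors and chaperones, 6 of 8 ligands, 16 of 23 adaptors, kinases and transcription factors, 7 of 11 negative regulators, 12 of 16 target genes and Tlr8, beside 17.1% of all genes. DESeq2 called higher 2, 4, 10, 4 and 5 genes of these 5 lists and Tlr8, and 1 co-receptor or chaperone lower, beside 17.6% of all genes called in either direction. Without AD-HFD-3, edgeR called higher 5 of 7 co-receptors and chaperones, 6 of 8 ligands, 14 of 23 adaptors, kinases and transcription factors, 6 of 11 negative regulators (with 3 lower), 14 of 18 target genes and Tlr8, beside 27.6% of all genes called. Without AD-3 the counts were 2 (with 1 lower), 6, 13, 6 (with 1 lower) and 16 in the same lists, and Tlr8, beside 30.3% of all genes called. The median log2 fold change of AD-HFD over Sham was 1.41 for the co-receptors and chaperones, 2.21 for the ligands, 1.01 for the adaptors, kinases and transcription factors, 1.01 for the negative regulators and 4.78 for the targets, beside 0.03 for all genes.

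**Figure D5:**
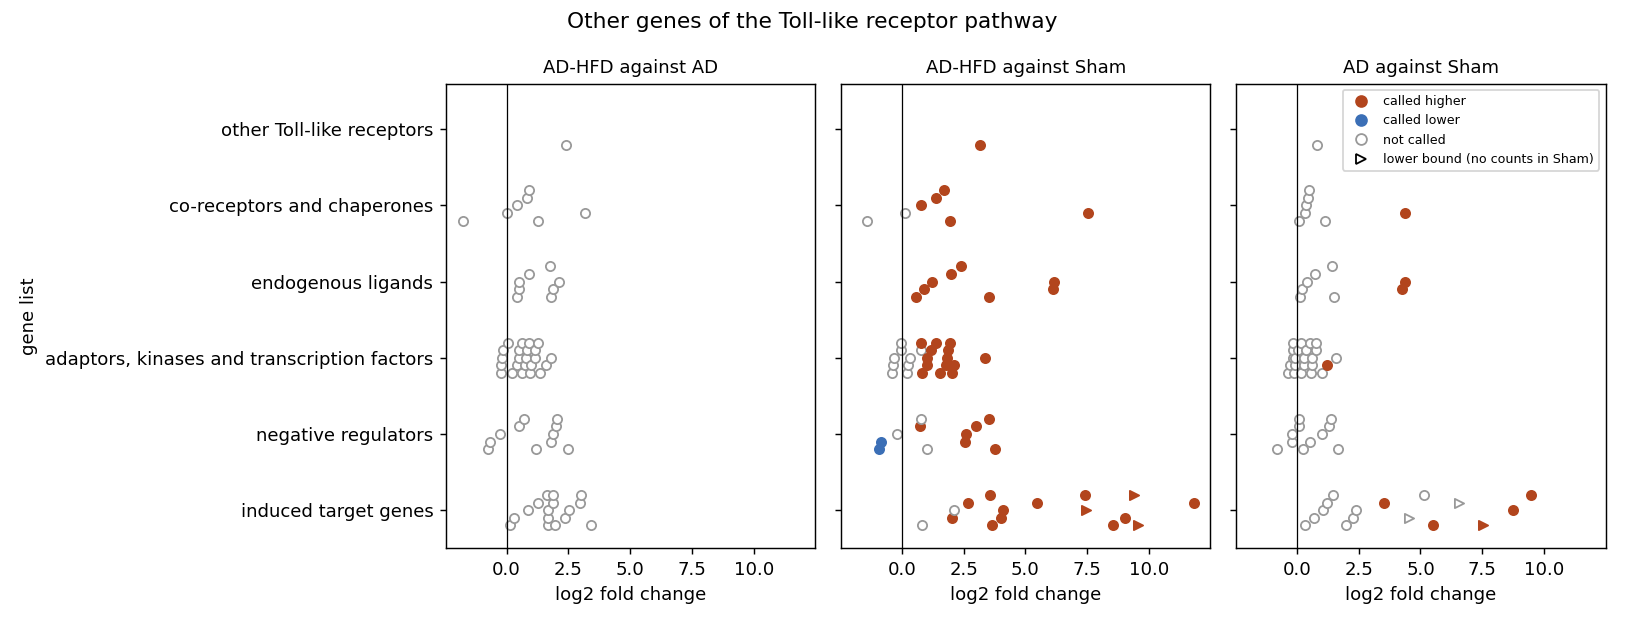
Log2 fold changes of the tested genes of 6 pathway lists in AD-HFD against AD, AD-HFD against Sham and AD against Sham. Filled points have an adjusted p under 0.05 (red higher, blue lower), and triangles are lower bounds for genes with no count in Sham. The filled points are most numerous in AD-HFD against Sham, with 14 of 16 induced targets, and absent in AD-HFD against AD.

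The genes whose profile over the 12 libraries was nearest to that of a member were ranked by the root mean square difference of centred log2 CPM, over 13168 genes with a mean of at least 1 CPM. Tlr4, Tlr6 and Tlr7 lay near one another: Tlr6 and Tlr7 followed Erap1 as the nearest to Tlr4 (0.246 and 0.249, with Erap1 at 0.222 and Sat1 next at 0.263), and Tlr4 was the next nearest to Tlr6 after Parp9, Crtapl1 and Sec24d. Nearest to Tlr7 were Erap1 at 0.172, Sppl2a, Prkx and Tram1. Nearest to Tlr2 were P2ry6 at 0.204, Psme1, RT1-DMb and Elf1. Nearest to Myd88 were Tyrobp at 0.211, Ddx39a, Vav1 and Irf1 at 0.233. Cd14, which varied far more between libraries (SD 3.13 log2), had Csf2rb at 0.577, Hmox1, Itgax and Maff as its nearest, Tlr1 had PVR at 0.562, Lilrb2, Zfp36 and Ncf4, and Tlr9 had Kcnk5 at 0.407, Anxa8, Lum and C5ar2. These distances are descriptions of profiles that share the same libraries.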

How the data were processed

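A single table of raw gene counts, as deposited by the authors, covers the 12 libraries in 31177 rows, of which 9127 are loci without a gene name (2.24% to 3.29% of the counts). Per the labels' protocols, RNA was extracted with TRIzol and made into libraries with a Yeasen dual-mode mRNA kit. FastQC and Trimmomatic are named without versions, per the submitters' processing notes; the aligner, counter, strand setting, build and annotation are not given in the sources used here. The members and gene lists were chosen with earlier results of these data known. In the lists, every gene called in at least 1 comparison could be named, at most 4 per list and comparison by smallest p (exceptions are marked in the text), and the 4 genes nearest to each called member.

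Counts were tested in R 4.3.3 with edgeR 4.0.16 (filterByExpr, TMM scaling, quasi-likelihood test) in 1 fit of 3 group means over 12 libraries, with Benjamini-Hochberg adjustment over 18850 genes and a threshold of 0.05. The SE is the log2 fold change divided by the square root of the test's F. Log2 CPM used a prior count of 2. The method was tested on simulated data. Alternatives included DESeq2 1.42.0, limma 3.58.1, other scalings and filters, each library left out in turn, and the sets of libraries named in the text. Value 1 occurred 2822 times among the counts and value 2 9479 times, and the counting unit is not given, so limits from small counts cover counting error only. Replicates of a group differed by more than sampling noise (chi-square per degree of freedom 18.3 to 488). Promoters came from a RefSeq table (GRCr8) and were matched to the counts by gene symbol, not by coordinates.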

Additional observations from a re-analysis of the deposited data

Results flagged for a closer look

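Of 30 sets of 4 libraries (10 genes in 3 groups), 3 held a library farther from the other 3 than Dixon's 95% limit allows, and chance alone flags about 5% of such sets. Tlr4 was low in AD-2, at 1.34 CPM, where the other AD libraries were at 2.46 to 2.50 CPM. Tlr7 was high in Sham-2, at 5.05 CPM, where the other Sham libraries were at 2.98 to 3.24 CPM. Tlr5 was at 0.0584 CPM in Sham-1, which is 2 counts, where the other Sham libraries had none.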

How the results depend on the processing

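Calls among the members in AD-HFD against Sham stayed between 7 and 9 under all 24 alternatives. In AD-HFD against AD, where edgeR called none, DESeq2 called 7 and the fit without AD-HFD-3 and AD-HFD-4 together called 6, beside 9.56% of all genes, and leaving out single libraries gave 0 to 8. In AD against Sham, where 2 were called, limma voom called 1 (and no gene of the 6 pathway lists), and leaving out single libraries gave 1 to 3. Replicate numbers are shared between the groups. Over 12 same-numbered pairs the correlation of deviations was -0.317 to 0.0947, and for AD-HFD-1 with Sham-2, which differ in number, it was 0.401. Other differences between libraries thus enter these correlations, which cannot decide whether the numbers pair the libraries. With the replicate block, 0 members were called in AD-HFD against AD, 8 in AD-HFD against Sham and 1 in AD against Sham, where Cd14 had a log2 fold change of 4.38 (adjusted p = 0.0594). Among the adaptors, kinases and transcription factors, where 1 gene was called in AD against Sham, DESeq2 called 3 and the replicate block 0. In AD against Sham, Tlr3 ranged from -0.13 (without AD-2) to 0.33 over the fits that left out 1 library, and with AD-1, AD-2 and AD-4 left out together Tlr3 was at -0.42 and Tlr9 at 0.14; the cause was not tested. With AD-3 as the only AD library, its spread is assumed to be that of the other groups. Another scaling moved the median of all genes to at most 0.10 on the log2 scale. Depth limits Tlr5, Tlr9 and the Sham level of Tlr1.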
